A study of Mus musculus with 6 samples.

Results

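Regulators of the trophoblast lineage, the cells that build the placenta, were compared between mouse embryonic stem (ES) cells with a knockout (KO) of Alkbh1 and wild-type (WT) ES cells. The Alkbh1 product is an AlkB-type dioxygenase. The regulators were 10 genes of 23951 in the authors' deposited table, chosen by name as transcription factors and a receptor of trophectoderm and placenta, and all 10 were found there. These were Cdx2, Eomes, Elf5, Tfap2c, Gata3, Esx1, Tead4, Hand1, Ascl2 and Fgfr2. The KO group comprised 4 messenger RNA libraries of Alkbh1 KO cells, from 2 clones with 2 libraries each. The WT group comprised 2 libraries of wildtype TT2 cells. Every library came from the TT2 line on a C57BL6 x CBA background, at passage 5 and without feeder cells, and how much of Alkbh1 the deletion removed is not in the labels.

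The table gave 1 pooled value per genotype, in FPKM (fragments per kilobase of transcript, relative to all mapped fragments, a level scaled by gene length). Values of single libraries were not at hand, so the levels have no SD, the 2 clones stay pooled, and depth is unknown. A genotype effect and a difference between cell clones cannot be told apart. A gene was called when the authors' q was under 0.05, and no test was run anew. Alkbh1 itself stood at 18.1 FPKM in KO cells and 33.9 FPKM in WT cells in the authors' deposited table, with q = 0.0943, which did not pass. Over all tested genes, FPKM summed to 624340 in KO and 981679 in WT, and fold changes followed level. The median log2 fold change was 0.69 in the lowest decile by mean FPKM and -0.72 in the highest. Each fold change below is as deposited unless it is given against the decile median or with equal totals, which adds 0.65 to every log2 fold change.

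Trophectoderm is the outer layer of the blastocyst, and trophoblast stem cells derive from it. In mouse, the DNA-binding factor TEAD4, with its coactivators YAP1 and WWTR1 under control of the Hippo kinases, switches on Cdx2 and Gata3. CDX2, EOMES, ELF5 and TFAP2C then hold the stem state together with FGF4 signalling through FGFR2, and HAND1, ASCL2 and ESX1 act in later placental cell types. ES cells normally keep this program low, with POU5F1 opposing CDX2 and with DNA methylation of the Elf5 promoter.

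Promoters of the 2 genes with the largest rises (Esx1, and Elf5 with its 2 annotated start sites), of the gene with the largest fall (Gata3) and of Cdx2, the gene without a test, are shown for their CpG content, since Elf5 is known as a target of DNA methylation. The windows run from 250 bases before to 50 bases after the start in RefSeq on GRCm38.p6, and the CpG dinucleotides are in capitals. Matching by symbol found 7 of the 10 genes in RefSeq's windows. The lines give Esx1 (chrX:137120277-137120576, minus strand), the upstream and the downstream start of Elf5 (chr2:103411848-103412147 and chr2:103423818-103424117, plus strand), Gata3 (chr2:9878551-9878850, minus strand) and Cdx2 (chr5:147307200-147307499, minus strand).
Esx1: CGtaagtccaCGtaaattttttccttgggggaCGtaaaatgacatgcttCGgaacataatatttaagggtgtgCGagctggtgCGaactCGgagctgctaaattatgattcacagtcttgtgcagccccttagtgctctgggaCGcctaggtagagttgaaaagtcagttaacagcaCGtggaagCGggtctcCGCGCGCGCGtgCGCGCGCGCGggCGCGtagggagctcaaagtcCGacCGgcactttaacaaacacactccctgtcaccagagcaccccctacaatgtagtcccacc
Elf5 upstream start: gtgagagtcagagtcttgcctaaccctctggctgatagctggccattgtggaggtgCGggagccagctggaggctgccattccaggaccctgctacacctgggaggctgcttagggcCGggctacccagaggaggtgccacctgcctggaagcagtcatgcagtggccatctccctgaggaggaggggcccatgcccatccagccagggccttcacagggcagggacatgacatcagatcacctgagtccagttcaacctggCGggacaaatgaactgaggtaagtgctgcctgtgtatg
Elf5 downstream start: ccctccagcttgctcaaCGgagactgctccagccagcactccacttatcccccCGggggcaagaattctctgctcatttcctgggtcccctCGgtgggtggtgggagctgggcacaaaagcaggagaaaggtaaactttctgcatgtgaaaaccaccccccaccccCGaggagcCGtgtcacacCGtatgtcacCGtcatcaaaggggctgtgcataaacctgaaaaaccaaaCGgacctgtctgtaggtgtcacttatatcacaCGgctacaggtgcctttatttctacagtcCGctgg
Gata3: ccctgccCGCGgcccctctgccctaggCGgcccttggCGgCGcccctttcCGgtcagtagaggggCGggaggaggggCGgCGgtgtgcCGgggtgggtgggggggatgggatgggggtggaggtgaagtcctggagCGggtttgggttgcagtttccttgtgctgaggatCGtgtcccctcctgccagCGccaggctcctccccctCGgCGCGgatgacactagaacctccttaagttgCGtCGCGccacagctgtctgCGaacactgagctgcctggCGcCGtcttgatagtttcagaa
Cdx2: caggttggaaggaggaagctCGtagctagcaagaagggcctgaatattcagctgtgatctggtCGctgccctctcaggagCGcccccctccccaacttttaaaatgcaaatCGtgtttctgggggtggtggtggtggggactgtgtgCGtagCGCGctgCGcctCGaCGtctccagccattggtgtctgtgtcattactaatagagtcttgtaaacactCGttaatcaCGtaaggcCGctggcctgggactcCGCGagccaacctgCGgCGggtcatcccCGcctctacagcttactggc

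The windows differed widely in CpG content. Esx1 held 24 CpG, among them a run of alternating C and G, and the upstream start of Elf5 held 3. The downstream start of Elf5 held 10, Gata3 held 22 and Cdx2 held 18. The median over 32841 RefSeq windows of the same length was 7. Among the other windows, Ascl2 held 23 CpG, Eomes 10 and Fgfr2 4. In these windows, high and low counts occurred among genes that rose (Esx1 and Elf5) and among genes that fell (Ascl2 and Fgfr2). Tead4 and Hand1, which also rose, had no window, nor did Tfap2c. Methylation of the windows was not tested.

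Of the 9 regulators that the authors tested, 5 were called higher and 3 lower in KO cells. Elf5, Esx1, Tead4, Hand1 and Eomes rose, Gata3, Fgfr2 and Ascl2 fell, and Tfap2c did not pass. Among all tested genes 50.8% were called, 22.4% higher and 28.4% lower, so a call by itself was common. The median log2 fold change of the tested regulators was 0.54, against -0.06 over the 14039 tested genes with both values above 0. Measured from the median of each gene's own level decile it was 0.32, and over the 5 regulators at or above the 25th percentile by mean level the deposited median turned to -0.19. With equal totals the calls would split into 6 higher and 2 lower, because Ascl2 would stand at 0.02, and over all genes the calls would be 34.0% higher and 16.8% lower (4788 and 2375 genes, against 3163 and 4000 as deposited). At q under 0.01 the regulators had 4 higher and 2 lower, against 17.2% and 22.6% of tested genes, and at q under 0.1 they had 5 and 3, against 25.4% and 31.8%. With at least a 2-fold difference 4 were higher and 1 lower, against 9.04% and 5.36% of tested genes. Without genes under 2.02 FPKM, the 25th percentile by mean level, 5 tested regulators were left, of which 2 were higher and 2 lower, against 16.3% and 35.6% of the genes left. In bulk RNA, fewer cells that express a gene and less RNA per cell cannot be told apart.

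**Figure D1:**
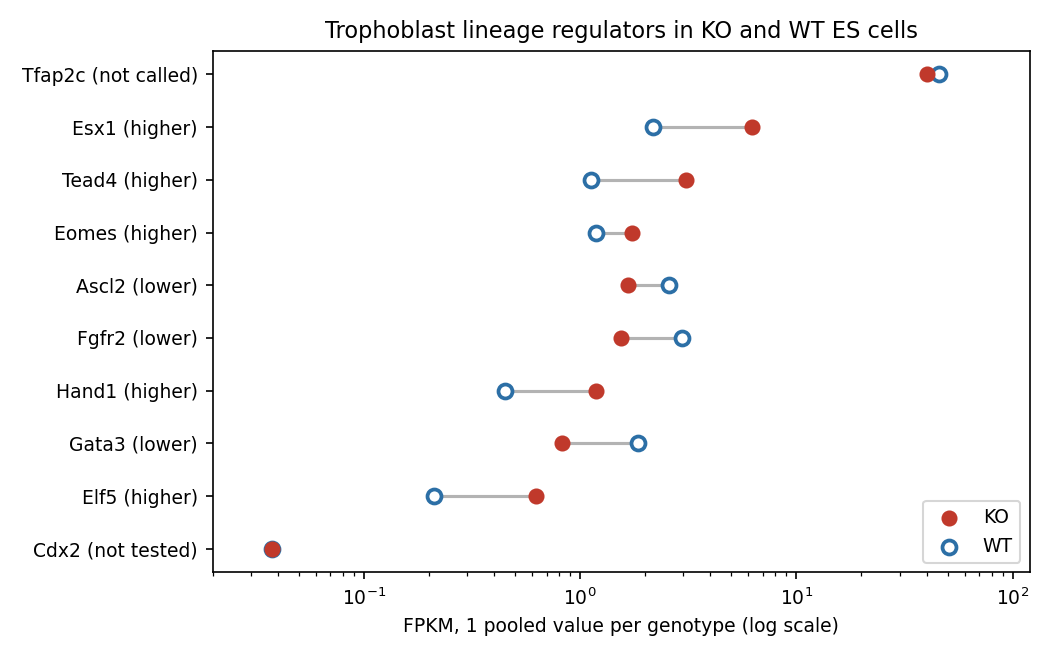
Level of each regulator in KO cells (filled red) and WT cells (open blue), 1 pooled FPKM value per genotype on a log axis, ordered by KO level, with the authors' call beside the name. Tfap2c stands far above the rest, at 40.1 FPKM in KO and 45.7 FPKM in WT, and Cdx2 lies near 0.04 FPKM in both genotypes.

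Levels spanned about 3 orders of magnitude. In KO cells the order from high to low was Tfap2c, Esx1, Tead4, Eomes, Ascl2, Fgfr2, Hand1, Gata3, Elf5 and Cdx2. In WT cells it was Tfap2c, Fgfr2, Ascl2, Esx1, Gata3, Eomes, Tead4, Hand1, Elf5 and Cdx2. Esx1, Tead4, Eomes and Hand1 stood higher in the KO order than in the WT order, and Fgfr2, Ascl2 and Gata3 stood lower. With no spread over libraries, neighbours in either order cannot be shown to differ. Apart from Tfap2c, the regulators were under 10 FPKM in both genotypes, and 8 of the 9 tested lay under the median level of tested genes, 7.57 FPKM. All 10 had a region of their own in the table, shared with no other row.

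Among the factors that set up trophectoderm, Tead4 and Gata3 moved in opposite directions. Tead4 (chromosome 6, 128177160 to 128250831, mm9), which encodes the Hippo pathway's DNA-binding factor, had 3.08 FPKM in KO cells and 1.12 FPKM in WT cells, a 2.74-fold rise with q = 0.000206 in the authors' deposited table. Gata3 (chromosome 2, 9778704 to 9800227, mm9), which encodes a zinc finger factor that in mouse acts beside CDX2, had 0.823 FPKM in KO cells and 1.86 FPKM in WT cells, a 2.26-fold fall with q = 0.000206 in the authors' deposited table. Of these factors, Cdx2 was the one at the bottom of the range. The homeobox gene Cdx2 (chromosome 5, 148112475 to 148118825, mm9) was listed at 0.0377 FPKM in KO cells and 0.0376 FPKM in WT cells and was marked as not tested, as were 9850 genes in all. Its level lay below the lowest mean among tested genes, 0.244 FPKM, so a difference could not be assessed.

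The factors that hold the trophoblast stem state were uneven. The ETS family gene Elf5 (chromosome 2, 103252254 to 103291145, mm9) had 0.623 FPKM in KO cells and 0.212 FPKM in WT cells, which at 2.94-fold was the largest rise of the 9 (q = 0.00205 in the authors' deposited table). It was also the least expressed regulator with a test. With a pseudocount of 1 FPKM added to both values, its log2 fold change would be 0.42. Esx1 (1.19), Tead4 (0.94) and Hand1 (0.60) would then stand above it. The T-box gene Eomes (chromosome 9, 118387306 to 118395250, mm9) had 1.73 FPKM in KO cells and 1.19 FPKM in WT cells, and its 1.46-fold rise was the smallest among the calls (q = 0.0258 in the authors' deposited table). EOMES also acts in mesoderm and endoderm of the mouse embryo. Tfap2c (chromosome 2, 172375092 to 172384121, mm9), the gene of an AP-2 factor also used by germ cells, had 40.1 FPKM in KO cells and 45.7 FPKM in WT cells, and did not pass (log2 fold change -0.19, q = 0.302 in the authors' deposited table).

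The receptor gene of the stem state fell while its ligand did not pass. Fgfr2 (chromosome 7, 137305964 to 137410322, mm9) had 1.55 FPKM in KO cells and 2.98 FPKM in WT cells, so that KO cells held 52.1% of the WT level (q = 0.000206 in the authors' deposited table). Fgf4, which encodes the ligand that ES cells secrete, had 73.6 FPKM in KO cells and 69.5 FPKM in WT cells, with q = 0.675 in the authors' deposited table. The other receptor genes did not share the fall. Fgfr3 rose, with 3.46 FPKM in KO and 2.27 FPKM in WT, and Fgfr4 rose, with 1.11 FPKM in KO and 0.413 FPKM in WT. Fgfr1, the most abundant of the family and in a region shared with another row, had 18.4 FPKM in KO and 15.8 FPKM in WT and did not pass (q = 0.245 in the authors' deposited table). The differences between these receptors were not tested.

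The regulators of placental cell types were also split. Hand1 (chromosome 11, 57642214 to 57645649, mm9), a bHLH gene needed in mouse for trophoblast giant cells, had 1.19 FPKM in KO cells and 0.449 FPKM in WT cells, a 2.65-fold rise (q = 0.000206 in the authors' deposited table). Esx1 (chromosome X, 133649935 to 133654865, mm9), an X-linked homeobox gene of the placental labyrinth, had 6.21 FPKM in KO cells and 2.17 FPKM in WT cells, a 2.86-fold rise (q = 0.000206 in the authors' deposited table). Of the called regulators, Esx1 reached the highest level in KO cells. Ascl2 (chromosome 7, 150152726 to 150155169, mm9), an imprinted bHLH gene needed for spongiotrophoblast, had 1.66 FPKM in KO cells and 2.58 FPKM in WT cells, 64.5% of the WT level (q = 0.019 in the authors' deposited table), a fall that vanishes with equal totals (0.02). The bHLH genes Hand1 and Ascl2 thus went in opposite directions as deposited.

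**Figure D2:**
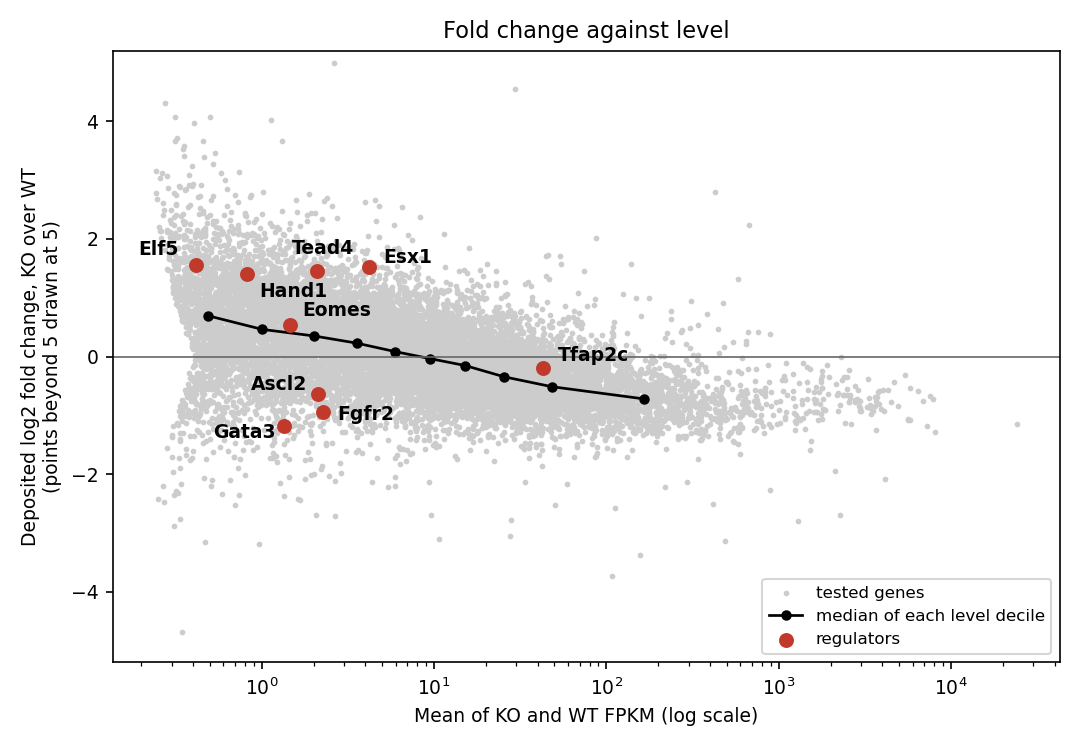
Deposited log2 fold change of KO over WT against the mean of KO and WT FPKM for all tested genes with both values above 0 (grey), with the median of each decile by level (black) and the tested regulators (red). Esx1, Tead4, Hand1 and Elf5 lie above the black line by 0.86 to 1.29, and Ascl2, Fgfr2 and Gata3 lie below it, at differences from it of -0.98, -1.29 and -1.64.

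Among genes of like level, lower calls were less common than higher calls. The regulators other than Tfap2c lay in the lowest 4 deciles by level, where between 33.3% and 41.3% of tested genes were called higher and between 5.46% and 12.9% were called lower. Gata3, at a log2 difference of -1.64 from the median of its decile, had 2.41% of that decile below it. Fgfr2 had 3.76% of its decile below it, and Ascl2 had 7.88%. Each of these falls thus stood in the low tail for its level. Among the rises, Esx1 had 1.92% of its decile above it and Tead4 4.97%. Hand1 had 11.6% above it and Elf5 16.6%, so larger rises than theirs were frequent among weakly expressed genes. Eomes lay 0.19 above its decile median, with 38.8% of the decile above it. Tfap2c, in the ninth decile, lay 0.32 above a median of -0.51, with 26.4% of the decile above it.

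**Figure D3:**
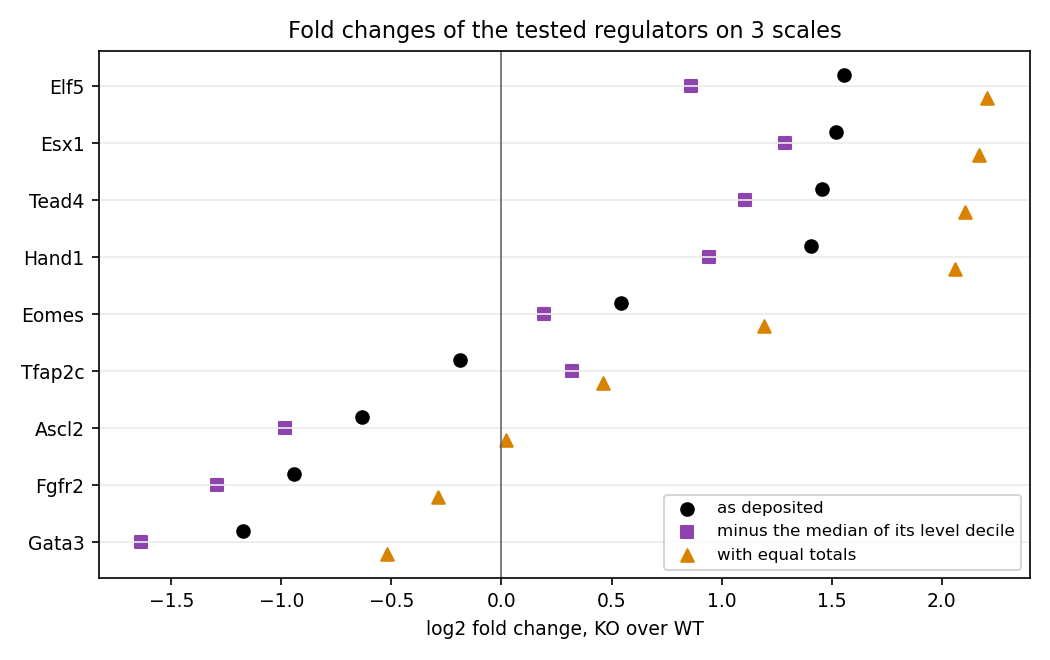
log2 fold change of KO over WT for the 9 tested regulators as deposited (black circles), minus the median of the gene's level decile (purple squares) and with equal totals (orange triangles). Elf5, Esx1, Tead4, Hand1 and Eomes lie above 0 and Gata3 and Fgfr2 below 0 on the 3 scales, Ascl2 moves to 0.02 with equal totals, and Tfap2c changes sign on both other scales.

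The wider network of these regulators was followed in a list of 114 other genes, of which 91 were tested. By the authors' deposited table, 32 of these were higher in KO and 15 lower, 35.2% and 16.5% of those tested, against 22.4% and 28.4% over all tested genes. With equal totals the split would be 38 and 9, against 34.0% and 16.8% of all tested genes. The list's median log2 fold change was 0.10, against -0.06 over all tested genes, and 57 of its members lay above the median of their level decile.

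**Figure D4:**
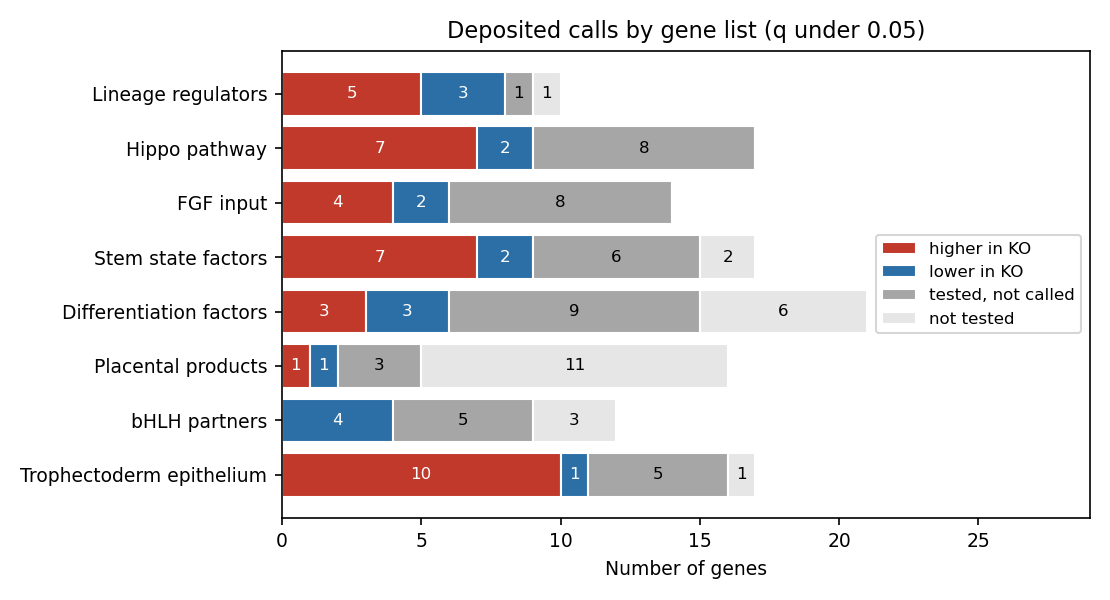
Number of genes higher in KO (red), lower in KO (blue), tested but not called (dark grey) and not tested (light grey) for the regulators and for 7 lists of the surrounding network. The trophectoderm epithelium list has 10 higher and 1 lower. The list of bHLH partners has none higher and 4 lower as deposited, or 3 higher and 1 lower with equal totals. Of all tested genes, 22.4% were higher and 28.4% lower as deposited, and 34.0% and 16.8% with equal totals.

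Upstream of the regulators, the Hippo pathway list had 7 of 17 genes higher and 2 lower in KO, 41.2% and 11.8%. Among all tested genes it was 22.4% and 28.4%. With equal totals the list would have 8 and 1, where Yap1 changes sign, against 34.0% and 16.8% of all tested genes. Mob1a and Mob1b, which encode adaptors of the LATS kinases, rose to 25.4 and 4.10 FPKM in KO, against 12.5 and 2.12 FPKM in WT. Amotl1, an angiomotin family gene, rose to 3.90 FPKM in KO, against 2.08 FPKM in WT, whereas its relative Amotl2 fell to 2.50 FPKM in KO, against 5.44 FPKM in WT. The coactivators moved apart as deposited. Wwtr1 rose to 6.48 FPKM in KO, against 4.04 FPKM in WT, and the more abundant Yap1 fell to 31.4 FPKM in KO, against 46.3 FPKM in WT (q = 0.000722 in the authors' deposited table), though with equal totals Yap1 would stand at 0.09. Of the other TEAD genes, Tead1 (log2 fold change 0.37) and Tead3 (1.48) were called higher and Tead2, the most abundant of them, had 41.3 FPKM in KO and 47.9 FPKM in WT and did not pass (q = 0.249 in the authors' deposited table).

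The list of FGF inputs had 4 of 14 genes higher and 2 lower in KO, or 5 and 1 with equal totals. As deposited these were 28.6% and 14.3%, against 22.4% and 28.4% of all tested genes. With equal totals the shares of all tested genes were 34.0% and 16.8%. The list holds Fgf4 and the other receptor genes given above. Its 10 genes that act downstream of the receptors had 2 higher and 2 lower, or 3 and 1 with equal totals. The adaptor gene Frs2 rose to 8.09 FPKM in KO, against 5.29 FPKM in WT. The exchange factor gene Sos1 rose to 5.50 FPKM in KO, against 4.26 FPKM in WT. The genes lower in KO encode small GTPases. Nras fell to 26.3 FPKM in KO, against 49.6 FPKM in WT. Hras fell to 22.1 FPKM in KO, against 29.8 FPKM in WT, and with equal totals it would stand at 0.22. None of the kinase genes Map2k1, Map2k2 and Mapk3 passed in either direction (q from 0.122 to 0.211 in the authors' deposited table).

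Other factors of the stem state were higher in 7 and lower in 2 of 15 tested genes, 46.7% and 13.3%, with the same split under equal totals. Shares of all tested genes were 22.4% and 28.4% as deposited, and 34.0% and 16.8% with equal totals. Arid3a, whose product promotes trophoblast genes in mouse, rose to 2.91 FPKM in KO, against 1.37 FPKM in WT. Bmp4, the gene of a secreted signal, in a region shared with another row, rose to 8.24 FPKM in KO, against 4.34 FPKM in WT, and the P-cadherin gene Cdh3 rose to 15.5 FPKM in KO, against 9.87 FPKM in WT. Sox15 rose to 35.9 FPKM in KO, against 17.2 FPKM in WT (q = 0.0229 in the authors' deposited table), also in a shared region, where reads of overlapping genes are uncertain. Id2, which encodes an inhibitor of bHLH factors, fell to 10.6 FPKM in KO, against 25.4 FPKM in WT. Sox2, used by ES cells and trophoblast stem cells alike and also in a shared region, fell to 164 FPKM in KO, against 278 FPKM in WT.

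Partners and inhibitors of the bHLH factors HAND1 and ASCL2 had 4 of 9 tested genes lower in KO and none higher as deposited. Of all tested genes 28.4% were lower and 22.4% higher. With equal totals the list would have 1 lower and 3 higher, against 16.8% and 34.0% of all tested genes. Above the median of their own level decile lay 2 of the 9. Against that median the 4 called genes stood at -0.71 (Tcf4), -0.43 (Id3), -0.13 (Plk4) and -0.07 (Id1). Id3 fell to 22.7 FPKM in KO, against 38.7 FPKM in WT, and keeps its direction with equal totals (-0.12). Id1 fell to 29.7 FPKM in KO, against 44.3 FPKM in WT, Tcf4 fell to 4.17 FPKM in KO, against 6.43 FPKM in WT, and the centriole kinase gene Plk4 fell to 17.6 FPKM in KO, against 24.4 FPKM in WT, and these 3 change sign with equal totals (0.08, 0.03 and 0.18). The E-protein genes Tcf3 and Tcf12 did not pass, nor did Mdfi, which encodes an inhibitor of ASCL2 in mouse and had 2.33 FPKM in KO and 1.66 FPKM in WT (q = 0.0844 in the authors' deposited table).

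Among later differentiation factors, 3 of 15 tested genes were higher and 3 lower in KO, or 4 and 2 with equal totals, where Hif1a changes sign. As deposited these were 20.0% and 20.0%, no more than the 22.4% and 28.4% of all tested genes. With equal totals the shares of all tested genes were 34.0% and 16.8%. Dlx3, a homeobox gene of the placental labyrinth, rose 3.67-fold to 1.58 FPKM in KO, against 0.431 FPKM in WT (q = 0.000206 in the authors' deposited table). Rxra rose to 2.73 FPKM in KO, against 2.01 FPKM in WT. Bhlhe40 rose to 12.1 FPKM in KO, against 6.74 FPKM in WT, in a region shared with another row. The falls were those of Cebpb (0.931 FPKM in KO, 1.76 FPKM in WT), Hopx (3.59 FPKM in KO, 6.19 FPKM in WT) and Hif1a (21.1 FPKM in KO, 30.6 FPKM in WT). Gcm1, the gene of the factor that starts syncytiotrophoblast formation, had 0.913 FPKM in KO and 1.01 FPKM in WT and did not pass (q = 0.673 in the authors' deposited table).

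Genes of mature placental products were mostly at or near 0. Of 16 listed, 5 were tested, 13 were under 1 FPKM in both genotypes, and Prl3d1, Prl3b1, Prl2c2 and Ctsq, which mark giant cells and labyrinth, were listed at 0 in KO and in WT. Tpbpa, a spongiotrophoblast marker, and Synb, a syncytin gene, were listed at 0.022 and 0.0143 FPKM in KO and at 0 in WT, without a test. Ctsj, a placental cathepsin gene, was listed at 0.00771 FPKM in KO and 0.313 FPKM in WT, also without a test, and Plac1 had 0.371 FPKM in KO and 0.707 FPKM in WT and did not pass (q = 0.0779 in the authors' deposited table). The other syncytin gene, Syna, was called higher, at 0.667 FPKM in KO and 0.279 FPKM in WT. Phlda2, an imprinted gene that restrains placental growth, fell to 12.3 FPKM in KO, against 31.9 FPKM in WT, and was the only gene of the list called lower. The list thus had 1 higher and 1 lower of 5 tested, against 22.4% and 28.4% of all tested genes.

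Genes of the trophectoderm epithelium were higher in 10 and lower in 1 of 16 tested genes, 62.5% and 6.25%, against 22.4% and 28.4% of all tested genes. The split was the same under equal totals, where the shares of all tested genes shift to 34.0% and 16.8%. Dsp, which encodes the desmosomal protein desmoplakin, rose 5.28-fold to 3.06 FPKM in KO, against 0.580 FPKM in WT. Krt19, a keratin gene, had a 3.19-fold rise, with 12.8 FPKM in KO and 3.99 FPKM in WT. Aqp3, a water channel gene, rose 2.97-fold to 81.3 FPKM in KO, against 27.4 FPKM in WT, and the galectin gene Lgals3 rose to 10.3 FPKM in KO, against 5.70 FPKM in WT. ES cells also express part of this list, as Cdh1 showed with 108 FPKM in KO and 97.3 FPKM in WT (q = 0.425 in the authors' deposited table). Tspan8, a tetraspanin gene, fell 4.58-fold to 2.14 FPKM in KO, against 9.80 FPKM in WT.

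**Figure D5:**
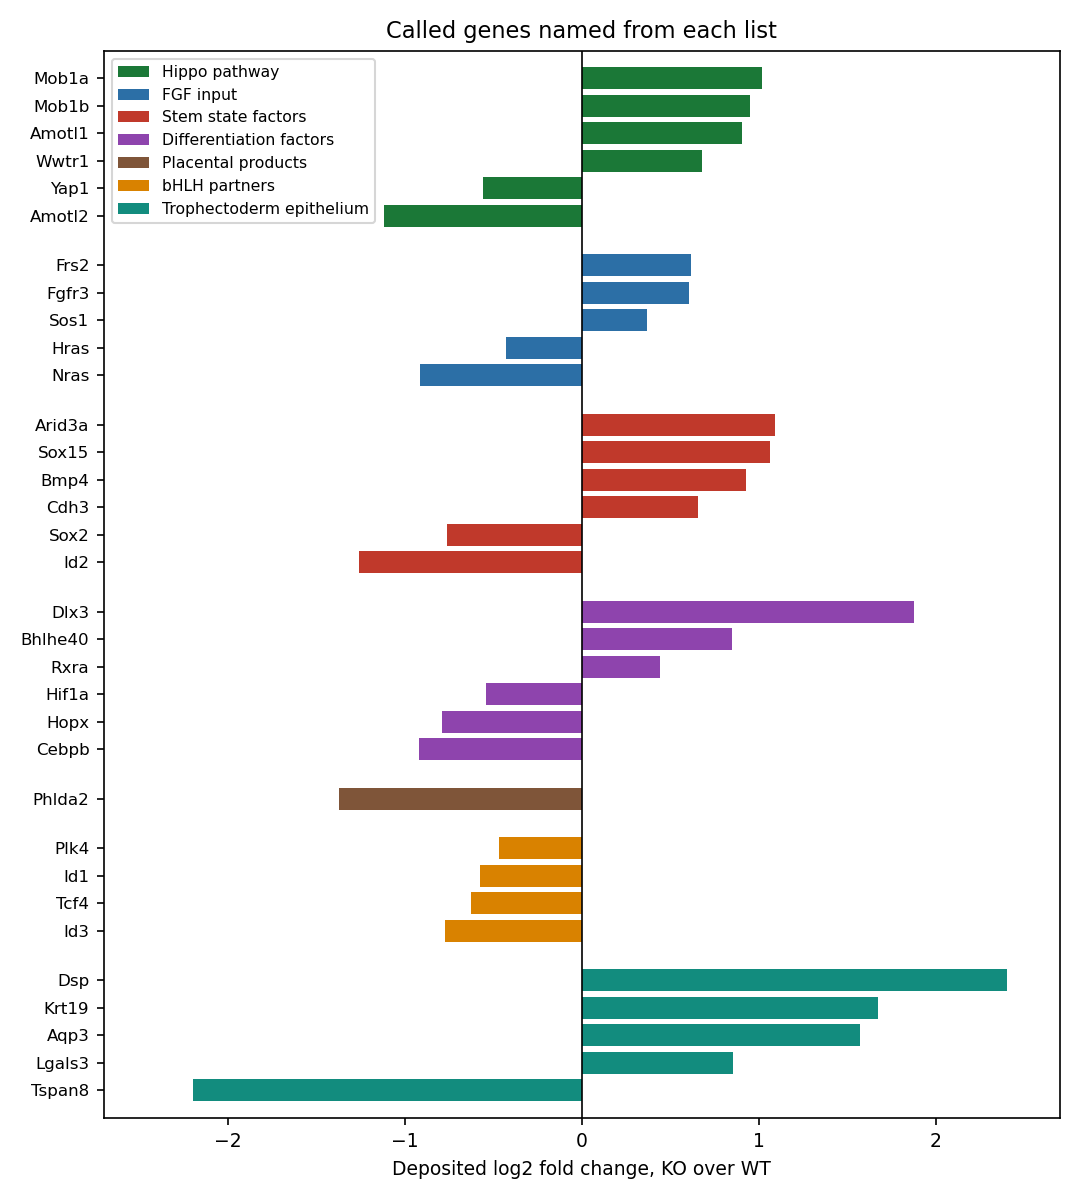
Deposited log2 fold change of KO over WT for called genes of each network list, up to 4 per direction and list, with a mean of at least 1 FPKM. Values run from -2.20 for Tspan8 to 2.40 for Dsp, and the epithelium list holds both ends.

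The cells carried the markers of ES cells in both genotypes. Pou5f1, whose product opposes CDX2, fell to 716 FPKM in KO, against 1222 FPKM in WT, with a log2 fold change of -0.77, close to the median of -0.72 in its decile. Of the 8 ES cell markers 7 were tested, and 6 were lower in KO (Pou5f1, Sox2, Zfp42, Dppa5a, Sall4 and Utf1), or 5 with equal totals, where Zfp42 changes sign. Esrrb did not pass (84.3 FPKM in KO, 75.0 FPKM in WT). Lower calls were common at these levels. Sall4 and Utf1 lay in decile 9 by level, where 59.5% of tested genes were called lower, and the other tested markers in decile 10, where 76.6% were. Against the decile median, Sall4 stood at -0.77, Utf1 at -0.39, Dppa5a at -0.12 and Sox2 at -0.04, while Zfp42 (0.22) and Esrrb (0.89) lay above it. Nanog was listed at 426 FPKM in KO and 481 FPKM in WT with a failed test. Of the DNA methyltransferase genes, Dnmt1 rose to 58.0 FPKM in KO, against 38.2 FPKM in WT. Dnmt3a fell to 13.9 FPKM in KO, against 27.0 FPKM in WT, and Dnmt3b fell to 27.9 FPKM in KO, against 47.3 FPKM in WT. Dnmt1, Dnmt3a and Sox2 share their regions with other rows.

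Several regulators are also expressed in other lineages, whose markers are given for comparison. Their counts stand beside 22.4% higher and 28.4% lower among all tested genes. Of 10 markers of extraembryonic endoderm 4 were tested, 2 higher (Amn and Gata4) and 2 lower (Dab2 and Sox7), and their FPKM summed to 3.45 in KO and 4.22 in WT. Of 9 mesoderm markers 3 were tested, with Mesp2 higher, Twist1 lower and Mixl1 not passing, and the sum was 4.03 FPKM in KO and 3.36 FPKM in WT. The list of 10 fibroblast markers, included for feeder cells, had 5 tested, with Thy1, Col1a1 and Pdgfrb higher and Vim and Acta2 lower. Their sum was 33.1 FPKM in KO and 69.1 FPKM in WT, most of it Vim, and without Vim the direction turned, with 11.1 FPKM in KO and 7.68 FPKM in WT. Most of that remainder was Thy1, with 9.39 FPKM in KO and 6.43 FPKM in WT. Of these markers, Col3a1, Lum and Postn were listed at 0 in WT. No marker of the endoderm list reached 1 FPKM in KO, where Dab2 led at 0.956 FPKM. The part of such cells in the changes of the regulators was not tested.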

How the data were processed

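Strand-specific messenger RNA libraries were made from column-purified total RNA, per the labels' protocols, and aligned with TopHat2 to mm9, per the submitters' processing notes. The annotation and the scaling of libraries were not given in the sources used here. Per the file headers, the authors' deposited table is laid out as Cuffdiff writes it. It holds FPKM for KO and WT, pooled by the authors, with their log2 fold change of KO over WT, test statistic (a score), p-value and q-value, per the file headers. The smallest deposited p-value, 5e-05, is shared by 5 of the regulators, which it therefore cannot rank.

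Calls used the deposited q under 0.05 and the sign of the deposited log2 fold change. The 14095 tested genes were split into 10 deciles by mean FPKM, and each regulator was placed among those of its decile with both values above 0. For equal totals, FPKM was summed over tested genes in each genotype, and the log2 of KO sum over WT sum was taken off every log2 fold change. The labels do not say whether libraries came from separate cultures. Members, lists and the alternatives in the closing section were chosen with earlier results of these data known. Some genes of the lists are not reported here and were left out of their counts. Named were all regulators, the ES cell and upstream genes, and per list up to 4 called genes per direction with a mean of at least 1 FPKM, by fold change. Other genes named to complete a count or a family were chosen after their values were seen. Motifs and CpG were counted in 32841 RefSeq windows of 300 bases on GRCm38.p6, and table positions are mm9. The decile and adjustment steps were tested on simulated data. Python 3.11.15, NumPy 2.4.6, pandas 2.3.3, SciPy 1.17.1 and matplotlib 3.10.9 were used.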

Additional observations from a re-analysis of the deposited data

How the results depend on the processing

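No paired analysis was possible because the table holds 1 pooled value per genotype, and for the same reason no library could be left out. Of the 5 regulators higher in KO, 4 were called at q under 0.01 (Eomes was not), 4 with at least a 2-fold difference, and 2 with weakly expressed genes removed, under 2.02 FPKM, which leaves out 4 of the 9 tested regulators (Eomes, Elf5, Gata3 and Hand1). Of the 3 lower, 2 were called at q under 0.01 and 1 with at least a 2-fold difference. At q under 0.1 the counts were unchanged. Among network genes a 2-fold threshold left 12 higher and 4 lower, against 9.04% and 5.36% of all tested genes. Equal totals left 9 lower, against 16.8% of all tested genes. Tfap2c changed sign with equal totals (0.46) and against its decile (0.32), and Ascl2 with equal totals (0.0202). No other regulator changed sign under equal totals, the decile median, or a pseudocount of 1 or 0.1. The regulators' median of 0.54 was 1.195 with equal totals, 0.32 with a pseudocount of 1, 0.39 as a mean, and -0.19 over the 5 regulators left by the filter on low values, so its sign rests on which genes are counted. Depth is unknown, and 7 regulators lie under 3 FPKM in both genotypes.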

Other observations

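The region around Ascl2 on chromosome 7 holds other imprinted genes of the placenta, and genes near it were chosen for mention after their values were seen. Within 500 kb of Ascl2 in the mm9 table, 5 of 10 tested genes were lower in KO and none higher, against 28.4% and 22.4% of all tested genes, with a median log2 fold change of -0.71. With equal totals that median would be -0.05, and the 5 called genes would all stay below 0, against 16.8% of all tested genes called lower. Cdkn1c would stand at -1.33, Tspan32 at -0.41, Tnnt3 at -0.28, Tssc4 at -0.06 and Mrpl23 at -0.05. These counts do not take level into account. Mrpl23, at -0.70 as deposited, lay in decile 10 by level, with a median of -0.72 and 76.6% of tested genes called lower. Tspan32, Tnnt3 and Cdkn1c lay in the lowest 4 deciles, where at most 12.9% were called lower. Cd81, 52.5 kb from Ascl2, had 95.6 FPKM in KO and 78.2 FPKM in WT and did not pass. Tspan32, the nearest at 35.8 kb, had 0.867 FPKM in KO and 1.81 FPKM in WT. Tssc4 had 14.8 FPKM in KO and 24.3 FPKM in WT, and Cdkn1c, an imprinted inhibitor of cell division, had 1.16 FPKM in KO and 4.58 FPKM in WT. Kcnq1ot1, the noncoding RNA that silences genes of this domain on the paternal allele, had 1.17 FPKM in KO and 1.05 FPKM in WT and did not pass (q = 0.423 in the authors' deposited table), nor did H19, with 42.1 FPKM in KO and 45.4 FPKM in WT. Around Esx1, 1 of 11 tested genes within 500 kb was higher and 2 lower, with a median of -0.19, while Esx1 stood at 1.52. Around Elf5, 1 of 7 was higher and 3 lower. Cat, whose region lies 2.92 kb from that of Elf5, had 33.0 FPKM in KO and 30.1 FPKM in WT and did not pass.

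Relatives of the regulators in the same gene families were higher in 9 and lower in none of 15 tested genes. Of all tested genes 22.4% were higher and 28.4% lower. The split was the same under equal totals, where the shares of all tested genes shift to 34.0% and 16.8%. Of the 9, 5 are also counted in the network lists (Tead1, Tead3, Fgfr3, Fgfr4 and Tfap2a), and the other 4 are Elf3, Elf4, Gata1 and Gata4. Above the median of their own level decile lay 12 of the 15. Of the ETS genes related to Elf5, Elf3 had 50.7 FPKM in KO and 27.7 FPKM in WT and Elf4 had 2.67 FPKM in KO and 0.773 FPKM in WT. Gata1, in the family of Gata3, had 1.96 FPKM in KO and 1.22 FPKM in WT, while Gata3 itself was lower. Gata4 was also called higher (0.557 FPKM in KO, 0.345 FPKM in WT), and Gata2 did not pass (0.625 FPKM in KO, 0.493 FPKM in WT).

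Short motifs were searched on both strands of the promoter windows, which describes letters and not binding. The octamer ATGCAAAT, read by POU factors, is present in the Cdx2 window, at position -147 from the start, and in 1.74% of all windows. The T-box half-site AGGTGT is present in both Elf5 windows and in the Ascl2 window, against 13.7% of all windows, and it overlaps an E-box (CANNTG, in 72.3% of all windows) in the upstream Elf5 window and in Ascl2. The TEAD motif GGAATG is present in the upstream Elf5 window alone among the 8 windows of the regulators, against 14.7% of all. The AP-2 motif GCCNNNGGC is present in the Gata3 and Cdx2 windows, against 16.6% of all. The CDX motif TTTATG is present in the downstream Elf5 window and the Fgfr2 window, against 11.9% of all. Also searched were the GATA motif AGATAA, the ETS motif GGAAGT and the homeodomain motif TAATTA. None of the 8 windows held them, against 11.2%, 23.8% and 5.29% of all. Whether any motif is more common in these windows than in all windows was not tested.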
